A study of Mus musculus with 7 samples.

Results

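The transcription factors that drive epithelial-mesenchymal transition (EMT), in which epithelial cells lose their junctions and take on a migratory, mesenchymal state, were followed through colon development in the mouse. The members are the listed genes Snai1, Snai2, Twist1, Twist2, Zeb1, Zeb2 and Prrx1, together with Vim, which encodes the intermediate filament vimentin and stands here for the total mesenchymal level. That use of Vim is an assumption, and whether it follows the share of mesenchyme at each stage was not tested. All 8 were measured, among 18194 genes in all. The samples are 7 total RNA preparations of colon from inbred C57BL/6 mice, 1 from the adult at 8 weeks and 6 from embryos taken daily between E13.5 and E18.5, where E is the embryonic day. Each was hybridised to its own Affymetrix Mouse Genome 430 2.0 array. No sample carried a mutation or a treatment that the labels name. How many animals stand behind an array is not given in the sources used here, and every stage is a single sample.

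Snail, Twist and Zeb proteins bind E-boxes, short DNA motifs, and repress epithelial genes such as Cdh1, the gene of the adhesion protein E-cadherin. The same factors are used by cells that are mesenchymal by descent, including the mesenchyme around the gut tube, and Zeb2 is also used by the neural crest cells that form the enteric nervous system. Colon tissue holds epithelium, mesenchyme, muscle, nerve, vessel and blood cells together. In such bulk samples fewer cells of a type and less RNA per cell cannot be told apart.

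Values are log2 intensities on the scale of robust multi-array average (RMA), and a gene's value is the median over the probe sets that name it alone. A probe set is a group of short probes for one transcript, and the 8 genes have 23 of them. A straight line through the 6 embryonic arrays gave a slope per day, and the adult difference is the adult value minus the level fitted at E18.5, each with its standard error (SE) from limma. Calls needed an adjusted p under 0.05, and for the adult difference also a size of 1 or more in log2 units. The spread of the single adult array is taken to equal that of the embryonic ones. On that array the log2 difference between 5′ and 3′ probe sets, a sign of RNA integrity, was -2.41 for Gapdh, against -1.59 to -1.29 on the embryonic arrays, and -2.66 for Actb, against -2.14 to -1.96. Its part in any adult difference was not tested.

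Snai2, Twist1 and Twist2 were lower in adult colon, and Twist1 and Zeb1 fell along the embryonic days, while no slope or adult difference of Vim was called. Of the 8 members, 5 had their lowest level of the 7 stages in the adult, namely Snai2, Twist1, Twist2, Zeb1 and Zeb2, where 24.2% of all genes did. Snai1 alone had its highest value there, as did 33.4% of all genes, but its values at all 7 stages were as dim as those of genes that colon uses little, so that their order cannot be read. Adult differences were called lower for 3 of 8 members, against 3.26% of all genes, and none was called higher, against 4.23% of all genes. Slopes were called falling for 2 of 8, against 10.4% of all genes, and none was called rising, against 9.12%. Between neighbouring embryonic stages 0 of 8 members stepped by 2-fold or more, as 2.3% of all genes did.

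**Figure D1:**
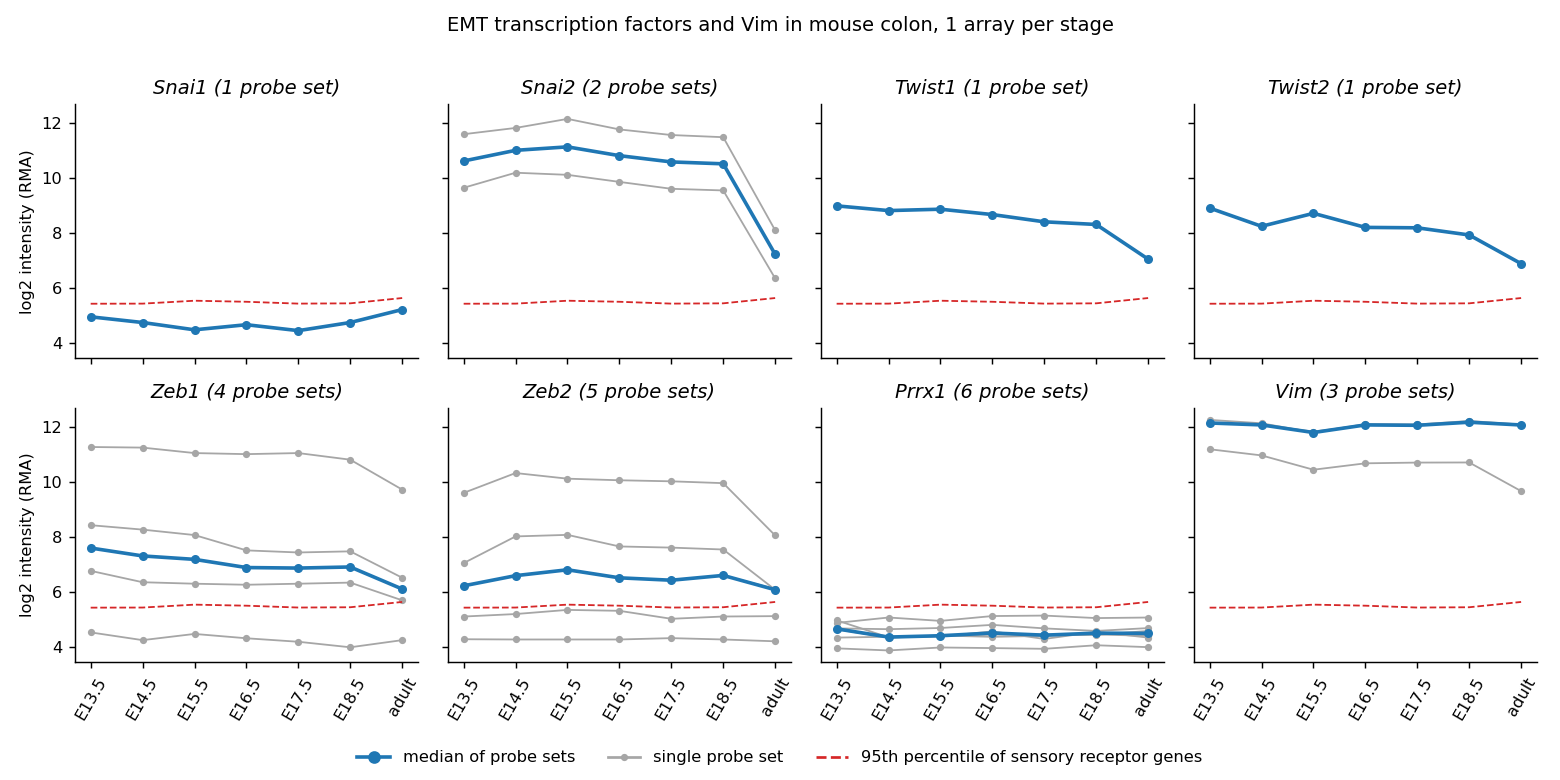
Log2 intensity (RMA) of each member at the 7 stages, 1 array per stage, with each probe set in grey, the median over probe sets in blue and the 95th percentile of 73 sensory receptor genes as a red dashed line. Snai2 lies between 10.52 and 11.13 in the embryo and at 7.22 in the adult, Vim lies between 11.80 and 12.17 throughout, and Snai1 and Prrx1 stay under the dashed line.

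Snai2 encodes Slug, a zinc finger repressor of the Snail family. Its log2 levels were 10.62, 11.01, 11.13, 10.81, 10.59 and 10.52 from E13.5 to E18.5, and 7.22 in the adult. The embryonic values peaked at E15.5 and spanned 0.62, and the adult value lay far outside them. The adult difference was -3.41 (SE 0.25, adjusted p = 0.000259), or 10.6-fold lower, with 8.92- to 12.6-fold at 1 SE either side. The embryonic slope was -0.060 per day (SE 0.0485, adjusted p = 0.482). Its 2 probe sets gave adult differences of -3.30 and -3.51, and both were called. They differed in their highest stage, which was E14.5 for 1418673_at and E15.5 for 1447643_x_at.

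Twist1 and Twist2 are bHLH factors, which pair with E proteins to bind DNA. Twist1 had log2 levels of 8.99, 8.81, 8.86, 8.67, 8.41 and 8.31 through the embryonic stages, and 7.05 in the adult. It thus drifted down in the embryo and was lower again in the adult. Its slope was -0.137 per day (SE 0.0227, adjusted p = 0.00813), a call lost without the E18.5 array (adjusted p = 0.058). Its adult difference was -1.28 (SE 0.12, adjusted p = 0.000642), or 2.43-fold lower.

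Twist2 had log2 levels of 8.91, 8.24, 8.71, 8.20, 8.19 and 7.93 through the embryonic stages, and 6.88 in the adult. E14.5 lay below both of its neighbours, and the adult again had the lowest value. Its slope of -0.159 per day (SE 0.0475) was not called (adjusted p = 0.06), and it was called without the E14.5 array (adjusted p = 0.0219) or the E15.5 array (adjusted p = 0.0463). The adult difference was -1.08 (SE 0.25, adjusted p = 0.0243), or 2.12-fold lower. This call was lost without E16.5 (adjusted p = 0.0532), E17.5 (adjusted p = 0.0797) or E18.5 (adjusted p = 0.0796). It was also lost with each gene's own variance in place of the limma estimate. Each Twist gene rests on 1 probe set.

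Zeb1 encodes a zinc finger and homeodomain repressor of epithelial genes. Its log2 levels were 7.59, 7.31, 7.18, 6.88, 6.86 and 6.90 through the embryonic stages, and 6.10 in the adult. In this median the fall lay between E13.5 and E16.5, with 3 nearly equal values from E16.5 on. The slope was -0.145 per day (SE 0.0285, adjusted p = 0.0149). That call was lost without E13.5 (adjusted p = 0.105) or E17.5 (adjusted p = 0.0599), and with each gene's own variance (adjusted p = 0.0731). The adult difference was -0.66 (SE 0.15, adjusted p = 0.0231), which is under the size required for a call.

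The 4 probe sets of Zeb1 did not behave alike. The brightest, 1418926_at, measured 11.27, 11.25, 11.05, 11.01, 11.05 and 10.81 in the embryo, and so was lowest there at E18.5. Probe set 1418926_at, at 10.81 to 11.27 in the embryo and 9.72 in the adult, had an adult difference of -1.14 (SE 0.11, adjusted p = 0.00112), which was called. Probe set 1446127_at had the steeper slope, -0.223 per day (SE 0.0352, adjusted p = 0.00859), and an adult difference of -0.79. Probe set 1443005_at had a slope of -0.067 per day and an adult difference of -0.52, and neither was called. Probe set 1420243_at lay between 3.98 and 4.52 at all stages.

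Zeb2, the paralog of Zeb1, had log2 levels of 6.22, 6.59, 6.80, 6.51, 6.42 and 6.60 through the embryonic stages, and 6.08 in the adult. Like the Snai2 median, the Zeb2 median was highest at E15.5, but unlike the falling factors its lowest embryonic level was the first. Neither the Zeb2 slope of 0.0315 per day (SE 0.0416, adjusted p = 0.69) nor its adult difference of -0.53 (SE 0.21, adjusted p = 0.15) was called. The median again hid unlike probe sets. Probe set 1434298_at measured 9.60, 10.32, 10.12, 10.06, 10.02 and 9.96 in the embryo and 8.05 in the adult, a difference of -2.02 (SE 0.27, adjusted p = 0.0034). Probe set 1456389_at measured 7.04 to 8.07 in the embryo and 6.08 in the adult, a difference of -1.64 (SE 0.40, adjusted p = 0.0359). Probe sets 1454200_at and 1458941_at lay between 4.20 and 5.34 at all 7 stages.

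Markers of enteric neurons and glia had a list median of similar shape but members that differed, with centred list medians of -0.29, 0.18, 0.31, 0.17, 0.023 and 0.009 in the embryo and -0.59 in the adult. Of this list 7 of 9 genes were measured. Over all genes 9.12% had rising slopes and 3.26% were lower in the adult, against 1 and 2 of these 7. The genes lower in the adult were Tubb3, a tubulin of neurons, at -2.00, and Ret, a receptor of enteric progenitors and neurons, at -1.09. Sox10 and Erbb3, of glia and neural crest, instead had their highest level of the 7 stages in the adult, at 6.85 and 8.36, and the rising slope was that of S100b. The part of these cells in the Zeb2 values was not tested.

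Snai1, the gene of Snail, and Prrx1, a homeobox gene of mesenchyme, gave little signal. Snai1 had log2 levels of 4.95, 4.74, 4.47, 4.66, 4.44 and 4.74 in the embryo, and 5.21 in the adult. Prrx1 had levels of 4.65, 4.35, 4.40, 4.50, 4.42 and 4.50 in the embryo, and 4.49 in the adult. Olfactory, vomeronasal and taste receptor genes, which colon is thought to use little, had a 95th percentile of 5.42 to 5.63 across the arrays, and both members lay under it at every stage. So did 10 of the 23 probe sets, including all 6 of Prrx1. The Snai1 adult difference of 0.67 (SE 0.19, adjusted p = 0.0558) and the Prrx1 adult difference of 0.050 (SE 0.14, adjusted p = 0.87) were not called, and at this signal a change in either gene may not have been detectable.

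Fitted one by one, 7 of the 23 probe sets were called lower in the adult, against 4.21% of the 34958 probe sets that name a single gene. They were both of Snai2, 1 each of Twist1, Twist2 and Zeb1, and 2 of Zeb2. Falling slopes were called for 3 probe sets, 1 of Twist1 and 2 of Zeb1, against 9.55% of all. When each gene was read from its brightest probe set on average, 5 members were lower in the adult, with Zeb1 and Zeb2 added, against 5.52% of all genes.

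**Figure D2:**
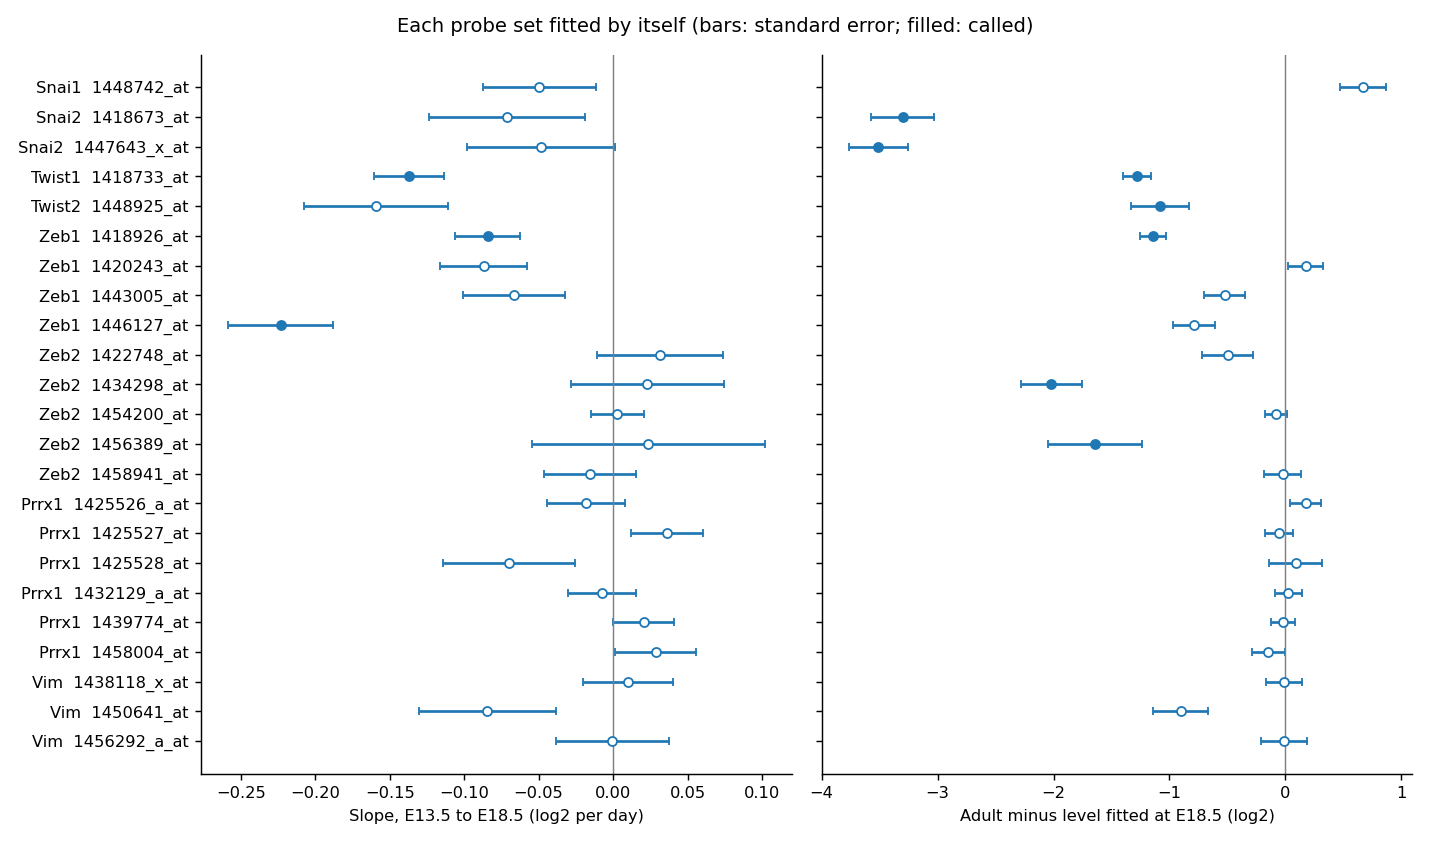
Slope per embryonic day (left) and adult minus fitted E18.5 difference (right), both in log2 units, for each of the 23 probe sets; bars are the SE and filled points were called. The 2 probe sets of Snai2 lie at -3.30 and -3.51 in the right panel, and those of Zeb1 and Zeb2 spread from near 0 to -1.14 and -2.02.

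Vim had log2 levels of 12.14, 12.08, 11.80, 12.07, 12.06 and 12.17 in the embryo, and 12.07 in the adult. E15.5 was the lowest stage, and the adult lay within the embryonic range. Its slope was 0.0107 per day (SE 0.0317, adjusted p = 0.876) and its adult difference -0.0093 (SE 0.16, adjusted p = 0.982). The probe sets disagreed on the adult. Probe sets 1438118_x_at and 1456292_a_at gave -0.012 and -0.011, whereas 1450641_at measured 11.19, 10.96, 10.44, 10.68, 10.70 and 10.71 in the embryo and 9.67 in the adult, a difference of -0.90 (SE 0.24, adjusted p = 0.0446).

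Set against Vim on the same array, the factors kept nearly the differences they had alone, since Vim itself moved little. The adult difference relative to Vim was -3.40 for Snai2 (adjusted p = 1.33e-06), -1.27 for Twist1 (adjusted p = 0.00179) and -1.07 for Twist2 (adjusted p = 0.0217). These 3 of 7 factors were called lower, against 3.39% of all genes. The slope relative to Vim was -0.148 per day for Twist1 (adjusted p = 0.0459) and -0.156 for Zeb1 (adjusted p = 0.0233), 2 of 7 against 8.0% of all genes. Subtracting Vim puts its error into every gene at once, so that limma counted 11.7 prior degrees of freedom in place of 2.83, and these p-values are too small. With each gene's own variance on 4 degrees of freedom, Snai2 stayed called in the adult (SE 0.47, adjusted p = 0.0436). Twist1 (adjusted p = 0.0945) and Twist2 (adjusted p = 0.287) did not, nor did the slopes of Twist1 (adjusted p = 0.222) and Zeb1 (adjusted p = 0.112).

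The outcome for the Twist genes, and for the gene medians of Zeb1 and Zeb2, turned on which mesenchymal measure was used. Those medians take in probe sets that lay under the 95th percentile of the receptor genes at all stages. Single Zeb probe sets were set against Vim only. There the adult difference of the brightest was -1.13 for Zeb1 (1418926_at) and -2.01 for Zeb2 (1434298_at). Against the median profile of 21 mesenchymal matrix and adhesion genes, the adult difference was -2.34 for Snai2 (SE 0.45), -0.21 for Twist1 (SE 0.22), -0.010 for Twist2 (SE 0.35), 0.41 for Zeb1 (SE 0.25) and 0.55 for Zeb2 (SE 0.41). Vim itself was 1.06 (SE 0.17) above that profile in the adult. Against Vim probe set 1450641_at, the adult difference was -2.50 for Snai2 (SE 0.57) and -0.38 for Twist1 (SE 0.38), and the slopes shrank to -0.0528 per day for Twist1 (SE 0.0728), -0.0749 for Twist2 (SE 0.095) and -0.0606 for Zeb1 (SE 0.0491). Snai2 was thus below 0 in the adult against each of these measures, and Twist1 lay within 1 SE of the matrix genes. For the embryonic slope the matrix genes gave larger falls than Vim did, with -0.229 per day for Twist1 (SE 0.0418), -0.251 for Twist2 (SE 0.0668) and -0.237 for Zeb1 (SE 0.0487) against them. Subtracting a shared profile shifts the slope of every gene by the same amount, so the larger falls are not particular to these factors. Vim itself had -0.081 per day (SE 0.033) against the matrix genes. These SE use each gene's own variance, and no call is drawn from them because the shared profile carries its own error.

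**Figure D3:**
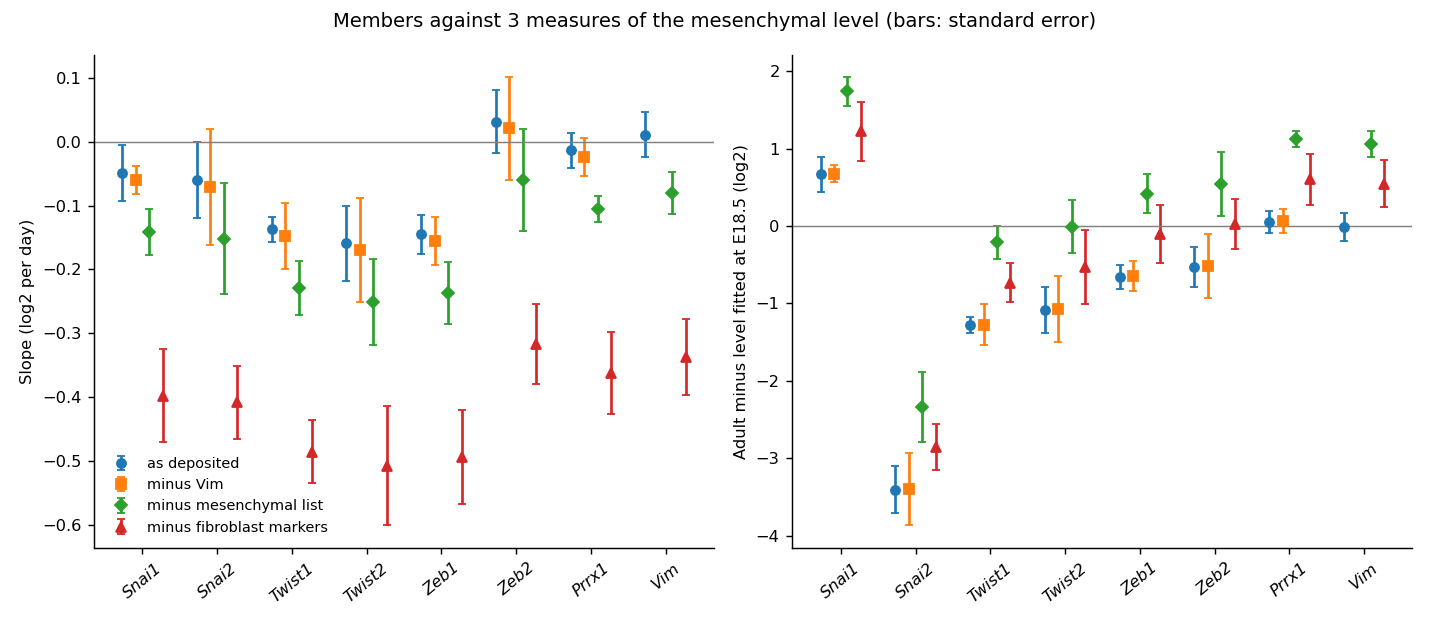
Slope (left, log2 per day) and adult minus fitted E18.5 difference (right, log2) of each member as deposited, minus Vim, minus the mesenchymal list and minus fibroblast markers; bars are the SE from each gene's own variance. Snai2 stays between -3.41 and -2.34 on the right, while Twist2 lies between -1.08 and -0.010.

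The mesenchymal genes behind that profile did not move as one. Of 21 measured genes of 22 listed, 9 had rising and 3 falling slopes, against 9.12% and 10.4% of all genes. In the adult 10 were lower and 2 higher, against 3.26% and 4.23% of all genes. The 2 higher were Thy1, with an adult difference of 2.01, and S100a4, with 1.41. The list had a median adult difference of -1.05 against 0.033 over all genes. Lox, which cross-links collagen, rose by 0.61 per day in the embryo and had an adult difference of -3.20 (adjusted p = 0.00064). Its level was 5.18 both at E13.5 and in the adult. Col1a2, a collagen chain, rose by 0.46 per day and had an adult difference of -2.07 (adjusted p = 0.00277), with 9.11 at E13.5 and 9.45 in the adult. Cdh11, an adhesion protein of mesenchyme, was unlike Lox and Col1a2 in falling through the embryo at -0.19 per day (adjusted p = 0.00197), with an adult difference of -2.22. Cdh2, or N-cadherin, had an adult difference of -1.85 (adjusted p = 0.000405), whereas Fn1, or fibronectin, at -0.70 (adjusted p = 0.0238) was under the size required. Fap, a protease of activated fibroblasts, rose by 0.65 per day (adjusted p = 0.00256).

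In a list of epithelial genes that includes known targets of these factors, called embryonic slopes were all rising. Of 25 measured, 15 had rising slopes and 0 falling, against 9.12% and 10.4% of all genes. The median slope was 0.18 per day against 0.0009 over all genes. In the adult 5 were higher and 0 lower, against 4.23% and 3.26% of all genes. The number rising was 7 without the E18.5 array. Cdh1 measured 11.57 at E18.5 and 10.69 at E13.5, and its slope was 0.182 per day (SE 0.0378, adjusted p = 0.0177). Krt19 and Krt8, keratins of simple epithelia, rose by 0.50 and 0.46 per day (adjusted p = 0.00208 and 0.0029), and Cdh17, the intestinal cadherin, by 0.45 (adjusted p = 0.00451). Spint1, a protease inhibitor, and St14, the protease it inhibits, had adult differences of 1.62 and 1.58 (adjusted p = 0.00245 and 0.000601), and Tjp3, of the tight junction, of 1.27 (adjusted p = 0.0132). All 7 epithelial markers had rising slopes, but Epcam, Krt8, Krt18 and Krt19 stand in both lists. The part of the epithelial share in these slopes was not tested.

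Snail, Slug and Zeb proteins are known to bind the E-box CACCTG, whose reverse complement is CAGGTG, so the 250 bases before each gene start were searched for either, which covers both strands. Both are cases of the wider E-box CANNTG. The RefSeq promoter table of GRCm38.p6 held 17 of the 25 epithelial genes, with 24 windows in all. CACCTG or CAGGTG was present in 14 of 24 windows (58.3%), against 17.2% of all 32851 windows, while CANNTG was present in 66.7% of them and 66.2% of all. Some genes have several windows, which can overlap. Counted by gene, 12 of 17 held CACCTG or CAGGTG, against 5252 of all 27025 genes. The list includes genes known as targets, so the share is a description and not independent evidence. The mesenchymal list held the motif in 0 of 15 windows, the epithelial factors in 4 of 12 and the members in 1 of 9 (6 members were matched), that of Snai1.

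The windows of 4 epithelial genes are shown because they carry the motif but their genes did not all rise, with Snai1 as the lone member. They are chr17:57061951-57062200 for Crb3 (plus strand), chr17:87635729-87635978 for Epcam (plus), chr3:88548280-88548529 for Rab25 (minus), chr15:102004343-102004592 for Krt8 (minus) and chr2:167537945-167538194 for Snai1 (plus). Each reads 5′ to 3′ up to the last base before the gene start, with CACCTG or CAGGTG in capitals.
Crb3: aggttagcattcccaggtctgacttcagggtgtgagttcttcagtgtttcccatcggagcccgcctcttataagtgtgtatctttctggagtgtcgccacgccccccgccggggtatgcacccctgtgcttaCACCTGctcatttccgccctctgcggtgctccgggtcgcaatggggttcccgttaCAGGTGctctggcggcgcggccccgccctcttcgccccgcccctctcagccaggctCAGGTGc
Epcam: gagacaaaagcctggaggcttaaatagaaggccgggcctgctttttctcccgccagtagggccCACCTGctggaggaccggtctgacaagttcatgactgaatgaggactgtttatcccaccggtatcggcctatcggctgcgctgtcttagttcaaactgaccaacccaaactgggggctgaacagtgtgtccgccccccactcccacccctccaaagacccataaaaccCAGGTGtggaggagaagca
Rab25: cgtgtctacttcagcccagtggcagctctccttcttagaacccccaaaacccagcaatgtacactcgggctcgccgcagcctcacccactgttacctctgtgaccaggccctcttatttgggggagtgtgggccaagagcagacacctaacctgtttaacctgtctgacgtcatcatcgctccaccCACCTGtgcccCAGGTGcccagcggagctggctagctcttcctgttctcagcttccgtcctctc
Krt8: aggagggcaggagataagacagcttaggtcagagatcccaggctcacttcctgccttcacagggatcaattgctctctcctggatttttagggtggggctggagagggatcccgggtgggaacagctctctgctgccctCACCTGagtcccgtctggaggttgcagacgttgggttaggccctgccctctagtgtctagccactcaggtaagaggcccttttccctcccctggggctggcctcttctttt
Snai1: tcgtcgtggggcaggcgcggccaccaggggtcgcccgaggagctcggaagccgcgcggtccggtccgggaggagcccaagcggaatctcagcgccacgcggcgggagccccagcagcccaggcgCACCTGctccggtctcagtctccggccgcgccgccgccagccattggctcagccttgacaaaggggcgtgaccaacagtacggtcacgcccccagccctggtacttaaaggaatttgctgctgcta

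Crb3, a polarity protein of the apical membrane, held 3 of the motifs, at -118, -63 and -7 counted from the gene start shown. The overlapping window of a second Crb3 start has the same 3 at -148, -93 and -37. The Crb3 slope was 0.024 per day (SE 0.0324, adjusted p = 0.698). Epcam, an epithelial adhesion protein, held 2 and rose by 0.21 per day (adjusted p = 0.0176). Rab25, a vesicle GTPase of epithelia, held 2, at -64 and -53, and rose by 0.30 per day (adjusted p = 0.00291). Krt8 held 1, at -111. Over the list, 7 of 12 genes with the motif and 4 of 5 without it had rising slopes, and the motif was thus found in genes of either kind. Snai1 held 1 motif, at -126.

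Of 15 epithelial transcription and splicing factors that oppose EMT, 8 had rising slopes, 0 falling and 7 no called slope. Over all genes 9.12% had rising and 10.4% falling slopes, and 4.23% were higher in the adult. Klf4, a factor of differentiated epithelium, rose by 0.68 per day (adjusted p = 0.00122), Cdx1, an intestinal homeobox factor, by 0.60 (adjusted p = 0.00167) and Foxa3 by 0.51 (adjusted p = 0.00378). Esrp1, which directs epithelial splicing, rose by 0.18 per day (adjusted p = 0.0214). Ovol2, a repressor of Zeb1 in epithelia, had an adult difference of 1.07 (adjusted p = 0.00151), the 1 factor of the list higher in the adult.

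**Figure D4:**
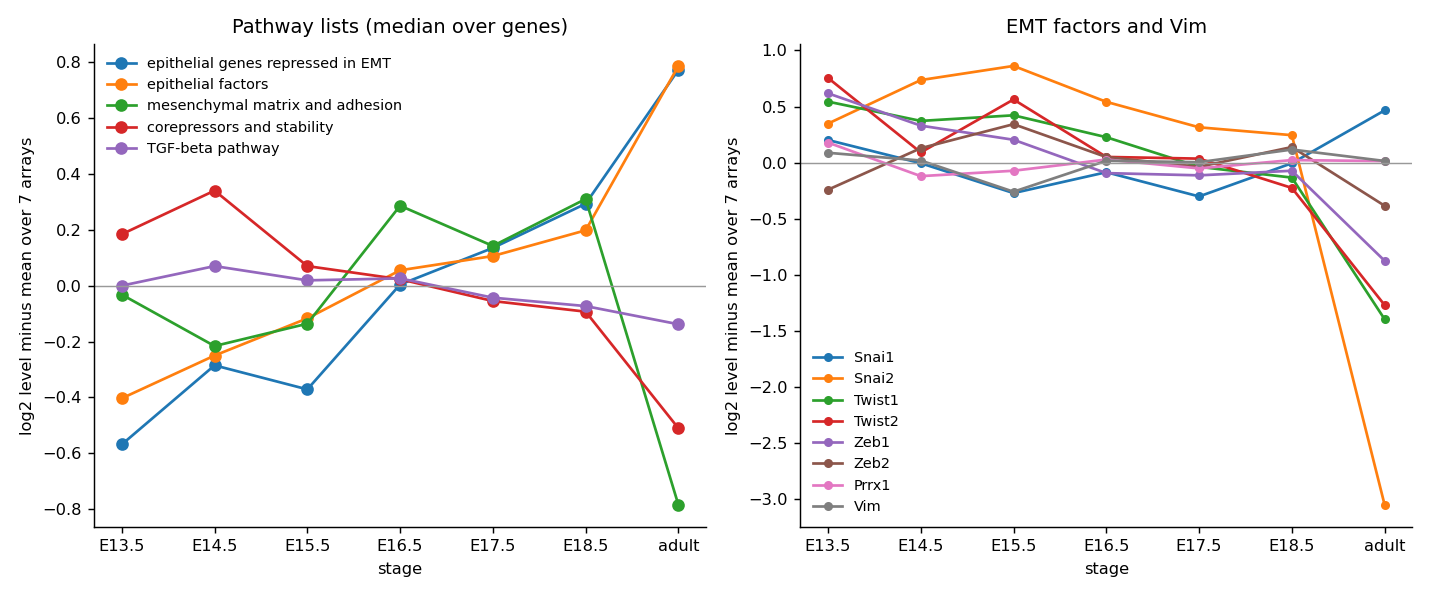
Log2 level minus the mean over the 7 arrays, by stage, as the median of 5 gene lists (left) and for each member (right), 1 array per stage. The epithelial list goes from -0.57 at E13.5 through 0.29 at E18.5 to 0.77 in the adult, and the mesenchymal list is at -0.78 in the adult, where Snai2 is at -3.05 and Vim at 0.015.

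Partners and regulators of the factors mostly fell where they were called. Over all genes 10.4% of slopes were called falling and 9.12% rising. Among 9 bHLH partners and Id proteins, which block E proteins, Id4 rose by 0.41 per day (adjusted p = 0.00415) and had an adult difference of -1.05 (adjusted p = 0.0426), while Id2 and the E protein Tcf12 fell by 0.30 and 0.23 per day (adjusted p = 0.00861 and 0.0202). Among 14 measured corepressors and stability factors, 5 slopes fell and 0 rose. Ezh2, the histone methyltransferase of Polycomb, fell by 0.31 per day (adjusted p = 0.00111), Hdac2, a histone deacetylase, by 0.29 (adjusted p = 0.00612), and Ajuba, a LIM protein that binds Snail proteins, by 0.26 (adjusted p = 0.00113) with an adult difference of -1.74.

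Of 11 genes of the TGF-beta pathway, an inducer of EMT, 3 slopes fell, those of the ligands Tgfb3 and Tgfb2 and of Smad2 (adjusted p = 0.0485, 0.00425 and 0.0251), and Tgfb2 had an adult difference of -1.02 (adjusted p = 0.00533). Of 13 measured other factors tied to EMT, 4 slopes fell and 0 rose. Both lists stand beside 10.4% of all genes with falling slopes and 9.12% with rising ones. Hmga2, a chromatin protein of embryonic cells, measured 9.92 at E18.5 and 12.28 at E13.5, fell by 0.49 per day (adjusted p = 0.000486) and had an adult difference of -3.14. Sox4 fell by 0.196 per day (adjusted p = 0.0164) and Six2 fell by 0.0852 per day (adjusted p = 0.0275). Foxf1, a factor of gut mesenchyme, had an adult difference of -1.12 (adjusted p = 0.0032).

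The profiles of the members were compared by the root mean square difference of log2 levels over the 7 stages, after centring each gene on its mean. Among pairs of members, Prrx1 and Vim, both with little change, were the closest at 0.10, followed by Twist1 and Twist2 at 0.17. Snai1 was at 0.22 from both Prrx1 and Vim, and Zeb1 at 0.25 from both Twist1 and Twist2, whereas Snai2 was at 0.70 or more from every other member. Over all named genes, those closest to Twist1 were Mcm4 (0.0553), a helicase subunit of DNA replication, Lmnb1 (0.0629), a nuclear lamin, and Kctd20 (0.0778). Those closest to Snai2 were Emilin3 (0.12), Rian (0.19) and Slitrk6 (0.21). Tshz3 (0.11), H2ax (0.13) and Hoxd9 (0.14) were closest to Twist2, Kcnq1ot1 (0.0474), Sfpq (0.0611) and Nkain2 (0.0631) to Zeb1, and Etl4 (0.0665), Msl3 (0.0702) and Crybg3 (0.076) to Zeb2. For Vim they were Slc9a5 (0.0222), Ndufaf7 (0.0375) and Fam174c (0.038), for Snai1 Ccpg1os (0.06), Gps1 (0.0621) and Rpp25l (0.0625), and for Prrx1 Jrk (0.0144), Dlx6os1 (0.0285) and Gpr19 (0.0352). These are descriptions over 7 arrays.

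Other cell types moved over the same stages. Beside the counts below, 9.12% of all genes had rising and 10.4% falling slopes, and 4.23% were higher and 3.26% lower in the adult. Of 5 measured markers of dividing cells, 5 fell along the embryonic days and 2 were lower in the adult, with centred medians of 0.73, 0.59, 0.11, 0.20, -0.12 and -0.31 in the embryo and -1.28 in the adult. Mesothelial markers had 3 falling and 1 rising slope of 5, and Wt1, a factor of mesothelium, measured 7.13 at E18.5 and 9.22 at E13.5, with a slope of -0.42 per day (adjusted p = 0.00852). Smooth muscle markers had 5 rising slopes of 7, with 1 higher in the adult. Fibroblast markers had 4 rising and 1 falling slope of 7, and 2 were lower in the adult. The falling one, Pdgfra, and the 2 lower, Col1a1 and Col3a1, also stand in the mesenchymal matrix and adhesion list. Leukocyte markers were higher in the adult for 6 of 8, with a median difference of 1.32, and pancreatic acinar markers for 3 of 5, with a median of 1.38. Their part in the levels of Twist1, Twist2, Zeb1, Snai2 and Vim was not tested.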

How the data were processed

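Values of the 7 arrays were deposited by the authors on the log2 scale after RMA (background correction, quantile normalization, summary per probe set), which hides any change common to most genes. Per the submitters' processing notes, affy 1.22.1 ran in R 2.9.2. From these, 34958 of 45101 probe sets that name 1 gene were used and their median taken per gene (932 name several genes and 9211 none), with 18033 of 18195 identifiers matched to a GRCm38.p6 gene table. limma 3.58.1 in R 4.3.3 (lmFit, eBayes) fitted base, slope per embryonic day and adult term on 7 arrays, leaving 4 residual degrees of freedom, with Benjamini-Hochberg adjustment over all genes, and was tested on simulated data. The number of arrays limits the precision. Named genes were all members, Cdh1, Epcam, Esrp1, Cdh2, Fn1, and of each pathway list the 3 largest called slopes and the 3 largest called adult differences, marker genes beside a result they move with, and the 3 genes of most similar profile per member; Crb3 and Rab25 were added after their promoters were seen. Members and lists were chosen with earlier results of these data known. Alternatives changed the probe set rule, dim filter, moderation, arrays, centring and mesenchymal measure.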

Additional observations from a re-analysis of the deposited data

How the results depend on the processing

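Each stage is 1 array, so p-values rest on scatter about a straight line, and curved profiles such as that of Snai2 widen it. The count of members with falling slopes, 2, was 1 to 3 when each embryonic array was left out in turn, and 1 with each gene's own variance, an alternative chosen after seeing the data. The count lower in the adult, 3, was 2 to 3 without each array and 2 with each gene's own variance. It was 5 with the highest probe set or with every probe set by itself. Relative to Vim, the 2 falling slopes became 0 with the highest probe set, 1 with every probe set, 0 with own variance, 0 against Vim probe sets 1450641_at or 1456292_a_at, 5 against the mesenchymal list, 7 against fibroblast markers, and 0 to 3 without each array. The 3 adult differences relative to Vim became 5 with the highest or every probe set, and 1 with own variance, against the mesenchymal list, against fibroblast markers or against probe set 1450641_at. The fits against both lists had unlimited prior degrees of freedom. With own variance, also chosen after seeing the data, falling slopes numbered 0 against the mesenchymal list and 7 against fibroblast markers, and adult differences 1 and 0. The slopes of the fibroblast markers had a median of 0.41 per day. The profile subtracted was instead the median of their centred levels on each array, and it rose too. Subtracting a rising profile lowers the slope of every gene by the same amount, which need not equal 0.41. Against the fibroblast markers the dim Snai1 and Prrx1 had -0.40 and -0.36 per day, and Vim, at 0.011 alone, had -0.34. No share of all genes stands beside the counts against either list. They are therefore not read as a result about the factors. Members with a 2-fold step between any neighbouring stages numbered 3, and 5 with the highest probe set. These counts include the step to the adult, for which no share of all genes was taken. The 2.3% given above covers embryonic neighbours only, so these counts are not read as a result about the members. Rising epithelial genes, 15, numbered 7 to 15 without each array. The causes were not tested.

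No slope or difference that changed sign was called in the main setting. Without each embryonic array in turn, the slope ranged from -0.036 to 0.050 for Zeb2 (relative to Vim, from -0.082 to 0.050), from -0.031 to 0.031 for Prrx1 and from -0.017 to 0.046 for Vim, and the adult difference from -0.0089 to 0.12 for Prrx1 and from -0.056 to 0.092 for Vim. Over the order of all 7 arrays the slope was 0.027 for Snai1 and -0.028 for Zeb2. The highest probe set gave slopes of 0.036 for Prrx1 (0.037 relative to Vim) and -0.00046 for Vim, and Prrx1 adult differences of -0.055 and, relative to Vim, -0.043. Centring each array gave a Vim slope of -0.0033. Against Vim probe set 1450641_at, slopes were 0.035 for Snai1, 0.025 for Snai2 and 0.071 for Prrx1, and adult differences 0.25 for Zeb1 and 0.38 for Zeb2. Against the mesenchymal list, the Zeb2 slope was -0.060 and the adult differences 0.41 for Zeb1 and 0.55 for Zeb2. Against fibroblast markers, Zeb2 had a slope of -0.32 and an adult difference of 0.027. No paired analysis was possible because each group holds 1 array.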
